A study of Homo sapiens with 3 samples.

Results

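Iron-handling genes were followed in cells of the established human colorectal cancer line HCT116 after targeting of DUOX2, an oxidase of the NADPH oxidase family that makes hydrogen peroxide. The set held 10 genes of the 58302 in the deposited table, picked by symbol: the ferritin chains FTH1 and FTL, the importers TFRC and SLC11A2, the exporter SLC40A1, the iron regulatory proteins IREB2 and ACO1, the ferritin cargo receptor NCOA4, and the haem oxygenases HMOX1 and HMOX2. All 10 passed the filter on low counts. To these were added the 25 genes named as copies of FTH1 and the 16 named as copies of FTL.

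The study held 3 RNA sequencing libraries, all of unmodified HCT116 cells as far as the labels say. They came from cells given siRNA 1 against DUOX2, siRNA 2 against DUOX2, or a control siRNA, with 1 library each, no stated dose or time, and no statement that they were separate cultures. The siRNA libraries were taken as 2 replicates of one group. The spread behind the p-values thus comes only from these 2 libraries, of different siRNAs, combined with a spread shared over all genes. It may be technical, and the single control adds nothing to it. The value of a single library has no error from replicates. The duplexes are shown because they define the groups, as the strand that carries the sense sequence, without the overhang.
Control siRNA: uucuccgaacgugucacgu
DUOX2 siRNA 1: ggaggacaacauagugguu
DUOX2 siRNA 2: ccaugaugcgauccuucau

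The libraries held 17589502 counts (control), 19130768 counts (siRNA 1) and 18832672 counts (siRNA 2). DUOX2 itself had 2, 2 and 0 counts in the control, siRNA 1 and siRNA 2 libraries, too few for the target to check the labels. The library protocol in the labels speaks of retinas, and the libraries were therefore read against marker genes. All 8 epithelial markers were detected in each library, with a summed level of 5217, 3217 and 4823 CPM (counts scaled by the library total). Of 9 retinal markers 6 had no count in any library and the sum was 0.797 to 1.36 CPM. Of 7 markers of red cell precursors, which handle much iron, 4 had no count, and the sum was 3.64 (control), 0.732 (siRNA 1) and 1.22 (siRNA 2) CPM, most of it HBA1. Of 6 markers of macrophages and other white cells, PTPRC and CD163 had no count, and the sum was 5.29 (control), 2.67 (siRNA 1) and 2.81 (siRNA 2) CPM, with 56, 17 and 32 counts of CD68. CD14 (24, 5 and 5 counts) was also highest in the control, while LYZ (4, 16 and 7) and CD3E (9, 13 and 9) were highest with siRNA 1. Both sums were highest in the control, but so were the epithelial and retinal sums. The sum of 5 fibroblast markers was as well (3.30, 2.14 and 3.08 CPM), and that of 4 hepatocyte markers was not (0.114, 0.157 and 0.212 CPM). The part of these low marker counts in the iron genes was not tested.

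Cells take up iron bound to transferrin through the transferrin receptor, move it out of the endosome through SLC11A2, store the excess inside a ferritin shell made of heavy (FTH1) and light (FTL) chains, and release it through ferroportin (SLC40A1). When iron is scarce the iron regulatory proteins bind a short hairpin, the iron-responsive element, which blocks translation of mRNAs that carry it before the coding part and stabilises the transferrin receptor mRNA, which carries it after the coding part. Ferritin is broken down by autophagy through NCOA4, and haem oxygenases free iron from haem. Ferritin and HMOX1 genes are also classical targets of the oxidative stress factor NRF2.

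The elements are shown because they tie the members to this switch, with the loop in capitals. They were found on the transcript strand of the principal GENCODE 29 transcript of each gene as a C, 5 bases, the loop CAGTGN and 5 more bases, where the 5 bases on each side of the loop pair with each other, G with T allowed. The pattern was present in 242 of 19788 protein-coding genes (1.22%).
FTH1, bases 59 to 87, before the coding part: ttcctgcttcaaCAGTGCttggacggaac
FTL, bases 35 to 63, before the coding part: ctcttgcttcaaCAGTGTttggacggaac
SLC40A1, bases 199 to 227, before the coding part: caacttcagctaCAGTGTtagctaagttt
TFRC, bases 3388 to 3416, after the coding part: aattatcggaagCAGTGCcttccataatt
TFRC, bases 3792 to 3820, after the coding part: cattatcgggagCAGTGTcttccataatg
TFRC, bases 3857 to 3885, after the coding part: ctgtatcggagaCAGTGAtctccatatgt
TFRC, bases 3904 to 3932, after the coding part: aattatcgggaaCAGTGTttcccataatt
FTH1P10, bases 22 to 50, a copy of FTH1: ttcctgcttcaaCAGTGCttggacagaac
These letters were not in the principal transcripts of SLC11A2, IREB2, ACO1, NCOA4, HMOX1 and HMOX2. FTH1P10 was a copy of FTH1 whose listed transcript also held the element.

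In the control library the ferritin chains were the most abundant of the 10 genes. On the deposited scale of FPKM, the count scaled by gene length and library total, FTL stood at 1707 and FTH1 at 118 in the control. TFRC (30.2) and NCOA4 (27.3) followed, then HMOX2 (6.82), IREB2 (6.40), HMOX1 (5.39), ACO1 (4.28) and SLC11A2 (2.78), with SLC40A1 last at 0.425 FPKM. A single control library gives no spread for this order. NCOA4 (33.1 FPKM) lay above TFRC (32.6 FPKM) with siRNA 2, and ACO1 (4.51 and 4.59 FPKM) lay above HMOX1 (2.52 and 4.19 FPKM) with both siRNAs, so these neighbours had no stable order.

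The gene length behind the deposited FPKM bears on any comparison between ferritin chains. The values imply a length of 6097 bases for FTH1, against 1229 bases for its principal transcript, and of 878 bases for FTL, which equals its principal transcript. The FTL level was 14.5 times that of FTH1 in the control on the deposited FPKM scale, and 2.92 times per kilobase of the principal transcript. By the second measure the ratio was 4.60 with siRNA 1 and 7.42 with siRNA 2. Without copies, the FTL level thus lay further above FTH1 in both siRNA libraries than in the control. These ratios leave the copies of both genes out. With copies added, the log2 fold changes with siRNA 1 were 0.22 for FTH1 and -0.64 for FTL, so the direction was reversed there. With siRNA 2 they were -0.79 for FTH1 and -0.39 for FTL, the same direction as without copies. Per kilobase of the principal transcript NCOA4 (84.5 CPM) lay above TFRC (74.9 CPM) in the control, and SLC11A2 (11.9 CPM) lay above HMOX1 (10.8 CPM) and ACO1 (5.40 CPM), both the reverse of the order in FPKM.

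**Figure D1:**
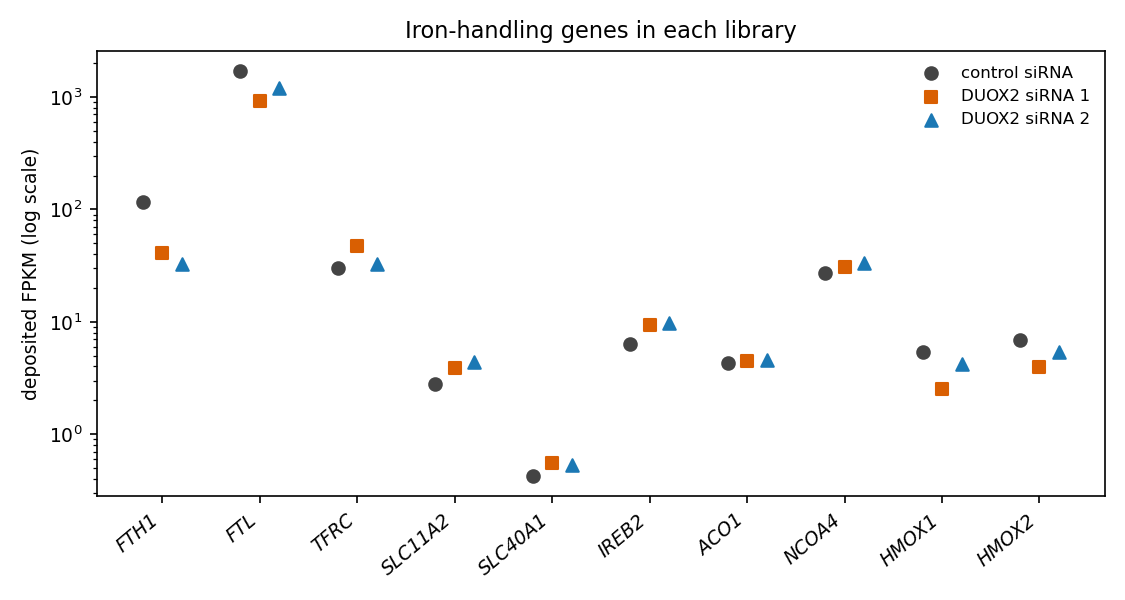
Deposited FPKM on a log scale for each of the 10 genes (horizontal axis) in the control library (circles), the siRNA 1 library (squares) and the siRNA 2 library (triangles), 1 library each. FTL spans 932 to 1707 FPKM, SLC40A1 0.425 to 0.554, and FTH1 has its highest value, 118, in the control.

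The design sets both siRNA libraries against the control, to find the genes that differ after siRNA against DUOX2. Of the 10 genes, 0 passed edgeR's quasi-likelihood test over all genes at an adjusted p of 0.05, against 10 of 17263 genes tested (0.0579%), with 0.0174% higher and 0.0405% lower. At an unadjusted p under 0.05 there were 4 of the 10 (FTH1, FTL, SLC11A2 and IREB2), against 26.0% of all genes tested, and DESeq2 called 1 (FTH1), against 5.54% of genes with an adjusted p. By level alone 6 of the 10 were higher than the control with both siRNAs (background 41.9%) and 4 were lower with both (background 41.6%). The median log2 fold change was 0.25 over the 10 genes and 0.01 over all genes tested. By a rule of size, at least 2-fold the same way with both siRNAs, FTH1 was the single gene of the set, and it was lower. By this rule 9.05% of all genes passed, and 5.05% of all genes were lower.

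FTH1 (ENSG00000167996, chromosome 11, 61959718 to 61967660, GRCh38) encodes the ferritin heavy chain, whose ferroxidase site oxidises iron for storage. Its counts were 12613 in the control library, 4762 in that of siRNA 1 and 3733 in that of siRNA 2. Both siRNA libraries lay below the control, at 0.383 and 0.288 of its level after TMM scaling. The log2 fold changes were -1.39 with siRNA 1 and -1.79 with siRNA 2, and -1.58 ± 0.22 (SE) for both against the control, with an edgeR adjusted p of 0.105. The DESeq2 adjusted p was 1.71e-05, and the adjusted p in the edgeR fit with the GC trend removed was 0.288 at a log2 fold change of -1.52. FTH1 shares 62.4% of its exon bases with BEST1, a chloride channel gene on the opposite strand that had 24, 179 and 68 counts in the control, siRNA 1 and siRNA 2 libraries, and the treatment of strand is not given in the sources used here.

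FTL (ENSG00000087086, chromosome 19, 48965301 to 48966878) encodes the light chain, which favours mineral formation inside the shell. Its counts were 26359 in the control library, 15651 in the siRNA 1 library and 19785 in the siRNA 2 library. Both siRNA libraries were below the control, siRNA 1 the lower of them. The log2 fold changes of -0.73 (siRNA 1) and -0.45 (siRNA 2) gave -0.59 ± 0.20 (SE) for both, with an edgeR adjusted p of 0.160.

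The ferritin counts could not be read from FTH1 alone, because most counts of its family lay on processed copies, intronless genomic copies of the mRNA. Among the 25 copies of FTH1, 17 had a count and 8 had at least 50 counts in a library. These 8 were 96.0% to 97.6% identical to the FTH1 mRNA over the part that aligned. FTH1P2 (chromosome 1, 228687415 to 228687826) is a copy of 412 bases that spans 2 of the 3 exon junctions of FTH1, and its counts were 10388 (control), 18807 (siRNA 1) and 8379 (siRNA 2). With siRNA 1 and siRNA 2 it held more counts than FTH1 itself. It took 67.3%, 68.4% and 65.0% of the counts on all FTH1 copies in the control, siRNA 1 and siRNA 2 libraries.

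The read length is not given in the sources used here, so windows of 50 bases were compared. Of 147 windows that cross an exon junction of the FTH1 mRNA, 136 (92.5%) were present without a mismatch in at least 1 of the 8 copies with 50 counts or more. Of 500 windows in the coding part 380 (76.0%) were, and of all 1180 windows of the mRNA 466 (39.5%). Bowtie, the aligner named in the submitters' processing notes, does not split a read across an intron. The effect of read placement on these counts was not tested.

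Against the control the copies did not move together, though all 8 with at least 50 counts were higher with siRNA 1 than with siRNA 2, as was FTH1. FTH1P11 had 1159 (control), 3208 (siRNA 1) and 1260 (siRNA 2) counts, FTH1P20 had 763, 1453 and 832, and FTH1P10 had 608, 1483 and 679. These were highest with siRNA 1 and near the control with siRNA 2. FTH1P10 shares 63.7% of its exon bases with another gene, and FTH1P11 shares 24.7%. FTH1P8 had 979, 1330 and 777 counts, and FTH1P12 had 14, 71 and 28. FTH1P7 (1120, 784 and 701 counts) and FTH1P23 (326, 249 and 189) were lower than the control in both siRNA libraries, with log2 fold changes of -0.49 and -0.71 for FTH1P7 and -0.37 and -0.82 for FTH1P23. Of the 8 copies with at least 50 counts, 4 were higher than the control with both siRNAs, 2 were lower with both and 2 differed in direction between the siRNAs.

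The share of the family's counts that lay on FTH1 itself was 44.98% in the control (95% Wilson interval 44.4 to 45.6, counting error only). It was 14.8% with siRNA 1 (14.4 to 15.2) and 22.4% with siRNA 2 (21.8 to 23.1). The total over FTH1 and its copies was 28039 counts (control), 32259 (siRNA 1) and 16629 (siRNA 2). The total was thus higher than the control with siRNA 1 (log2 fold change 0.22) and lower with siRNA 2 (-0.79), whereas FTH1 alone was lower with both. The fitted log2 fold change of the total was -0.20 ± 0.40 (SE), with an edgeR adjusted p of 0.774.

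**Figure D2:**
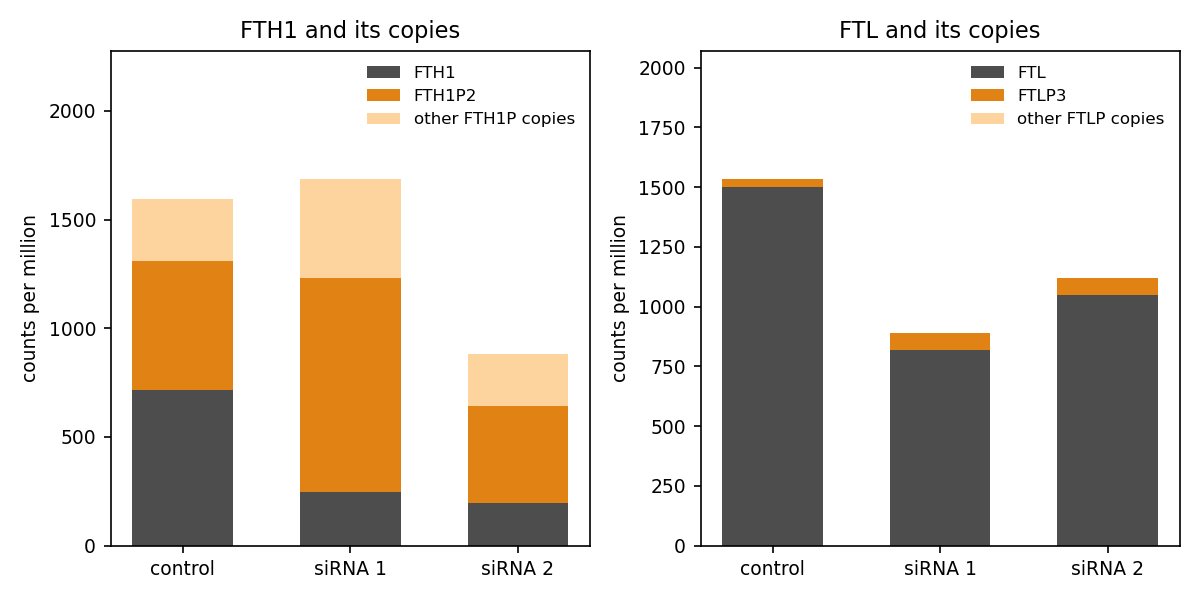
CPM, stacked for the parent gene (dark), its most counted copy (orange) and all other copies (pale), in the control, siRNA 1 and siRNA 2 libraries, for FTH1 (left) and FTL (right). FTH1 makes 44.98%, 14.8% and 22.4% of its stack, and FTL makes 97.7%, 91.8% and 93.8%.

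FTL had one copy of weight. FTLP3 (chromosome 20, 4023917 to 4024444), 97.7% identical to the FTL mRNA, had 614 (control), 1388 (siRNA 1) and 1297 (siRNA 2) counts, and the other 15 copies had at most 4 counts in a library. FTL held 97.7% (control), 91.8% (siRNA 1) and 93.8% (siRNA 2) of the counts of its family, so that the total (26976, 17046 and 21089 counts) was close to the gene alone. The total was lower with both siRNAs, with log2 fold changes of -0.64 and -0.39 and a fitted -0.51 ± 0.20 (SE, edgeR adjusted p = 0.179). FTLP3 went the other way from FTL, at 1.19 and 1.04 (edgeR adjusted p = 0.113).

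The lower share of the parent gene in its family's counts was set beside other genes, a comparison chosen after the ferritin values were seen and given without a test. With siRNA 2 the counts on the FTH1 copies were themselves lower than in the control (685 against 877 CPM). It took 191 protein-coding genes with processed copies named after them, with at least 1000 counts per family and 100 on the copies in every library. The share on the parent was lower than the control with both siRNAs in 141 of them (73.8%), with a median shift of -3.7 percentage points for siRNA 1 and -3.2 for siRNA 2. FTH1, at -30.2 and -22.5 points, had the third lowest shift of the 191 with each siRNA.

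TFRC (ENSG00000072274, chromosome 3, 196027183 to 196082189), the transferrin receptor, was counted 6735 times in the control library, 11399 times in the siRNA 1 library and 7793 times in the siRNA 2 library. The siRNA 1 library stood apart, at 1.72 times the control after TMM scaling, while siRNA 2 was at 1.13 times. The log2 fold change for both was 0.51 ± 0.29 (SE), with an edgeR adjusted p of 0.303. SLC11A2 (ENSG00000110911, chromosome 12, 50979401 to 51028566), the divalent metal transporter DMT1, had 870, 1332 and 1461 counts. Both siRNA libraries lay above the control by similar amounts, with log2 fold changes of 0.63 and 0.71 (0.67 ± 0.21 SE for both, edgeR adjusted p = 0.147). Both importers thus had their lowest value in the control.

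SLC40A1 (ENSG00000138449, chromosome 2, 189560579 to 189583758), ferroportin, the iron exporter, was the least counted of the members, with 43 (control), 61 (siRNA 1) and 57 (siRNA 2) counts. Its level was 2.44 CPM in the control (95% Poisson interval 1.77 to 3.29), 3.19 with siRNA 1 (2.44 to 4.10) and 3.03 with siRNA 2 (2.29 to 3.92). The intervals overlap and cover counting error only, which does not show that the levels are equal. No difference was shown, as the fitted log2 fold change was 0.45 ± 0.37 (SE, edgeR adjusted p = 0.465).

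Of the iron regulatory proteins, IREB2 (ENSG00000136381, chromosome 15, 78437431 to 78501456), which encodes IRP2, had 1427 (control), 2261 (siRNA 1) and 2343 (siRNA 2) counts. The siRNA libraries were alike, with a log2 fold change of 0.68 for each (0.68 ± 0.20 SE for both, edgeR adjusted p = 0.134). ACO1 (ENSG00000122729, chromosome 9, 32384603 to 32454769), which encodes IRP1, a cytosolic aconitase when it holds an iron-sulphur cluster, had 709, 812 and 813 counts. Its log2 fold change of 0.19 ± 0.22 (SE) was within its error (edgeR adjusted p = 0.606). NCOA4 (ENSG00000266412, chromosome 10, 46005088 to 46030714), the receptor that carries ferritin to autophagosomes, had 3428, 4181 and 4438 counts, with a log2 fold change of 0.32 ± 0.18 (SE, edgeR adjusted p = 0.304). All 3 had their lowest count in the control.

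The haem oxygenases were lower with both siRNAs. HMOX1 (ENSG00000100292, chromosome 22, 35380361 to 35394214), the stress-inducible enzyme, had 346 (control), 176 (siRNA 1) and 288 (siRNA 2) counts. Its log2 fold changes were -0.95 (siRNA 1) and -0.30 (siRNA 2), so the siRNA libraries differed from each other about as much as from the control (-0.59 ± 0.33 SE, edgeR adjusted p = 0.298). HMOX2 (ENSG00000103415, chromosome 16, 4474690 to 4510347), the constitutive enzyme, had 1038, 660 and 869 counts and followed the same order of libraries (-0.45 ± 0.25 SE, edgeR adjusted p = 0.284).

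The direction of each gene went with its base composition. The 6 genes that were higher with both siRNAs had a GC content of 38.3% (IREB2) to 45.7% (ACO1), and the 4 that were lower had 50.1% (FTH1) to 58.1% (HMOX1), by the longest transcript of each. All genes tested showed the same slope. In genes of 40% to 45% GC the median log2 fold changes were 0.39 (siRNA 1) and 0.30 (siRNA 2), and in genes of 55% to 60% GC they were -0.59 and -0.44. After this trend was removed, TFRC moved from 0.78 and 0.17 to 0.35 and -0.15, and IREB2 from 0.68 and 0.68 to 0.14 and 0.25, for siRNA 1 and siRNA 2. FTL moved from -0.73 and -0.45 to -0.23 and -0.07. HMOX1 moved to -0.31 and 0.19, and HMOX2 to -0.10 and 0.12, so that the siRNAs differed in sign for both. SLC11A2 kept 0.27 and 0.43. FTH1, whose GC content lies near the point where the trend crosses 0, hardly moved, at -1.32 and -1.75.

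**Figure D3:**
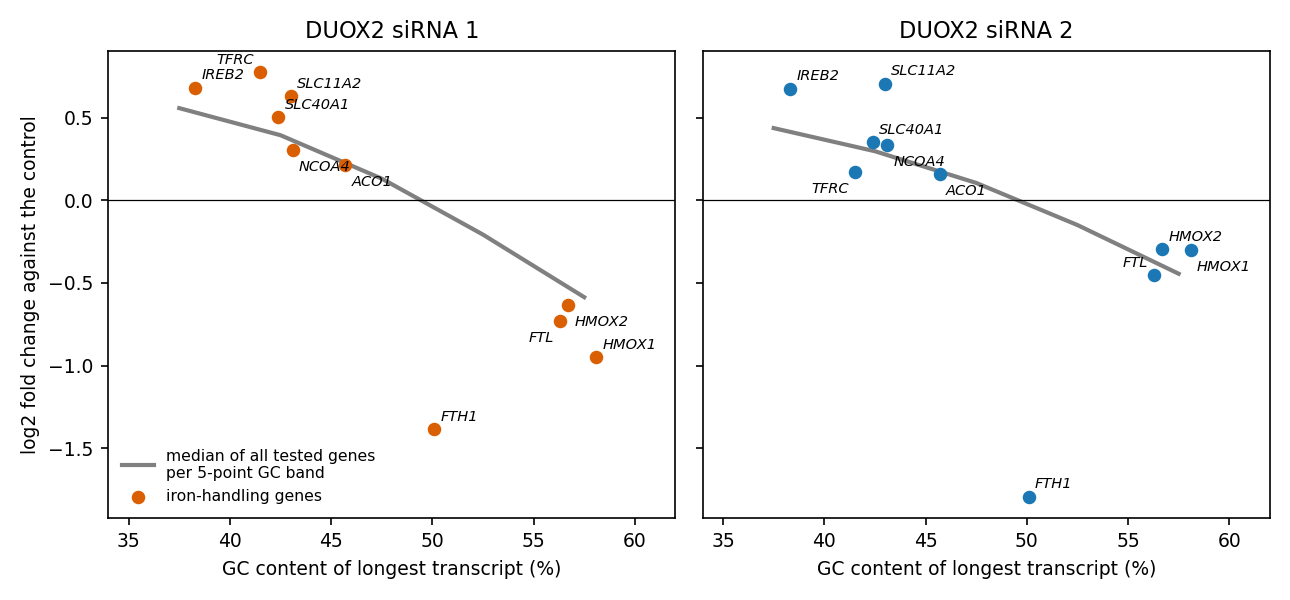
Log2 fold change against the control (vertical axis) by the GC content of the longest transcript in percent (horizontal axis) for the 10 genes (points), with the median of all tested genes in bands of 5 percentage points (grey line), for siRNA 1 (left) and siRNA 2 (right). FTH1, at -1.39 and -1.79, lies farthest from the line in both panels.

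The members were also set in the wider iron pathway through 7 lists that share some genes. Together with the members these held 86 genes, of which 76 passed the filter and 0 passed edgeR's test over all genes (smallest adjusted p 0.105). Of the 76, 28 (36.8%) had an unadjusted edgeR p under 0.05, against 26.0% of all genes tested. DESeq2 called 5 of the 76, namely FTH1, ALAD, SLC39A8, SLC48A1 and EPAS1, against 5.54% of all genes with an adjusted p. Members and lists were chosen with earlier results of these data known, so these shares are no test of the lists. The 10 genes that did not pass the filter had at most 2 counts in any library. They included transferrin (TF), hepcidin (HAMP), ceruloplasmin (CP), the red cell haem synthesis enzyme ALAS2 and the mitochondrial ferritin FTMT, which had 0 counts in every library, a limit of 0.157 to 0.171 CPM at 3 counts.

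The list of mRNAs with an iron-responsive element was drawn from general knowledge and not from the pattern search, which found no match in the principal transcripts of SLC11A2, EPAS1, CDC14A and CDC42BPA. Of its 9 measured genes, both siRNAs left 5 above and 4 below the control. Among all genes tested 41.9% were above and 41.6% below with both, the background for this count and for those of the lists that follow. The median log2 fold change of the 9 genes was 0.37, against 0.01 over all genes, and 0.01 with the GC trend removed. EPAS1, the hypoxia factor HIF2α, had 4541, 2662 and 2623 counts in the control, siRNA 1 and siRNA 2 libraries (-0.79 ± 0.18 SE, edgeR adjusted p = 0.1197, DESeq2 adjusted p = 0.0495). Among the members that carry the element before the coding part, FTH1 and FTL stood at -1.58 and -0.59, and SLC40A1 at 0.45 ± 0.37 (SE).

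In the list of uptake, export and ferric reduction, 12 of 19 genes were measured, 5 higher and 6 lower with both siRNAs, with a median of -0.10. SLC39A8, the metal importer ZIP8, had 586, 1470 and 1479 counts in the control, siRNA 1 and siRNA 2 libraries. It was above the control by the same amount with each siRNA, at 1.34 and 1.30, and at 1.07 and 1.08 with the GC trend removed (edgeR adjusted p = 0.109, DESeq2 adjusted p = 0.00136). STEAP2, a ferric reductase, had 546, 1004 and 800 counts, and STEAP3, the endosomal ferric reductase, had 193, 75 and 108, and overlaps an antisense gene. SLC48A1, a haem transporter, had 3007, 1599 and 1476 counts (-0.89 and -1.06), of which -0.26 and -0.58 were left with the trend removed.

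Of 6 measured genes for iron chaperones and ferritin turnover, 1 was higher and 4 were lower with both siRNAs (median -0.34). FBXL5, the iron-sensing subunit of the ubiquitin ligase that degrades IRP2, had 579, 343 and 376 counts in the control, siRNA 1 and siRNA 2 libraries. Its log2 fold changes of -0.73 and -0.66 went against the trend of its GC content (40.5%) and stood at -1.20 and -1.02 after removal (edgeR adjusted p = 0.147 as measured). The mRNA of IREB2, whose protein product FBXL5 marks for breakdown, was higher in the same libraries. It stood at 0.68 with each siRNA as measured, and at 0.14 and 0.25 with the trend removed. RNA counts do not show breakdown of the protein, and a link between the genes was not tested. GLRX3, an iron-sulphur chaperone, had 2239, 3032 and 3109 counts, and PCBP2, an iron chaperone that overlaps MAP3K12, had 5128, 4938 and 5489. BOLA2 had 13, 1 and 4 counts and shares 74.2% of its exon bases with a read-through gene, so its values are uncertain.

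In mitochondrial iron and iron-sulphur cluster assembly, all 19 genes were measured, 12 higher and 4 lower with both siRNAs, with a median of 0.27, and 0.11 with the GC trend removed. CISD2 had 498, 906 and 970 counts and ISCA1 had 857, 1539 and 1509, while ABCB8 had 481, 281 and 243 and FDXR, the ferredoxin reductase, had 315, 168 and 188. The first pair had GC contents of 37.3% and 40.8%, the second 60.4% and 61.8%. In cytosolic iron-sulphur assembly 1 of 9 genes was higher and 7 were lower with both siRNAs, against 41.9% and 41.6% of all genes tested. The median was -0.23, and 0.17 with the trend removed. NUBP2 had 299, 128 and 157 counts and NDOR1 474, 206 and 294, while CIAO2A had 458, 499 and 933 and CIAPIN1 553, 515 and 711.

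Of 12 measured genes of haem synthesis and breakdown, 2 were higher and 7 lower with both siRNAs, against 41.9% and 41.6% of all genes tested. The median was -0.34, and -0.04 with the trend removed. ALAD, which joins 2 aminolevulinate molecules in the second step of haem synthesis, had 462 (control), 133 (siRNA 1) and 154 (siRNA 2) counts. It was the lowest of the list with each siRNA, at -1.76 and -1.61, and at -1.54 and -1.44 with the trend removed (edgeR adjusted p = 0.105, DESeq2 adjusted p = 0.0114). PPOX had 135, 73 and 77 counts, with 24.3% of its exon bases shared with B4GALT3, while CPOX had 489, 720 and 577 and UROS 701, 847 and 757. Of 9 ferroptosis genes, 3 were higher and 5 lower with both siRNAs (median -0.15). ACSL4, a lipid ligase that promotes ferroptosis, had 3976, 6493 and 6686 counts, and GPX4, the lipid peroxidase that opposes it, had 2040, 967 and 1289. With the GC trend removed they stood at 0.15 and 0.26 and at -0.09 and 0.03.

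Over all 76 measured iron genes, those at least 2-fold away the same way with both siRNAs after removal of the GC trend were SLC39A8 (higher) and FTH1, ALAD, FBXL5 and BOLA2 (lower), against 3.34% of all tested genes higher and 1.40% lower by this rule. FTH1 was taken here without its copies. With copies added it stood at 0.29 (siRNA 1) and -0.75 (siRNA 2) and did not pass. BOLA2 rested on 13, 1 and 4 counts in the control, siRNA 1 and siRNA 2 libraries.

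**Figure D4:**
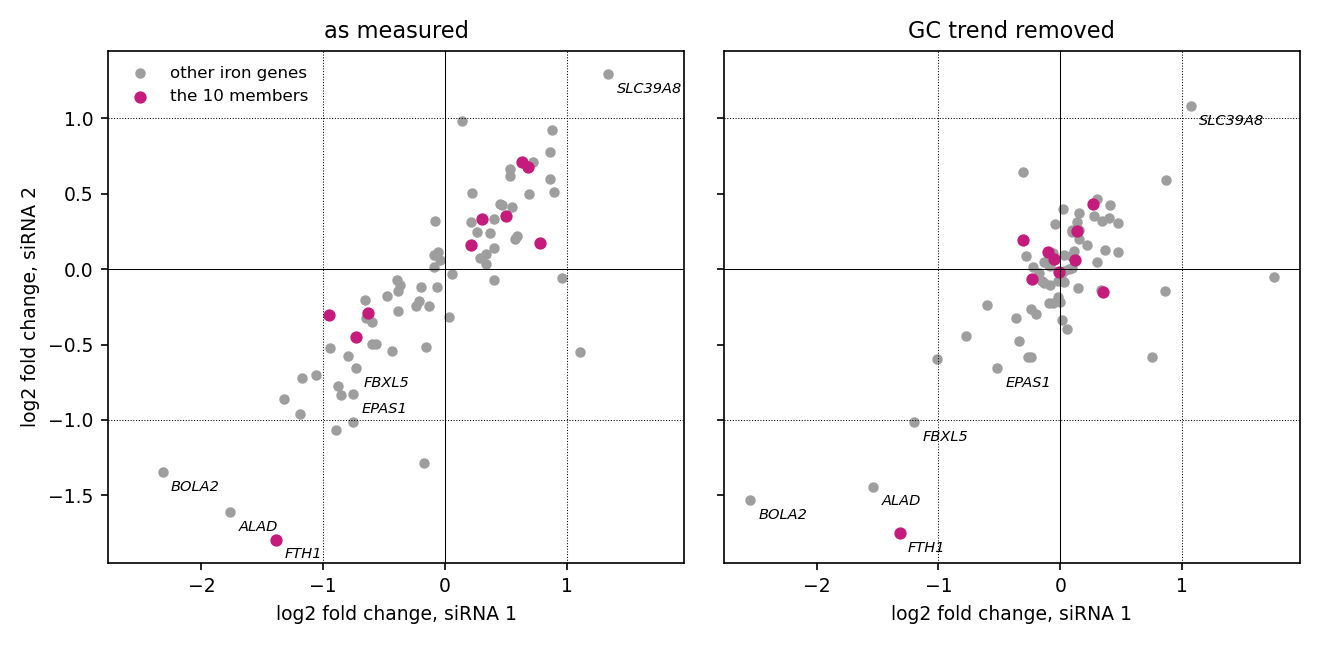
Log2 fold change with siRNA 1 (horizontal axis) and siRNA 2 (vertical axis) for the 76 measured iron genes, the 10 members in magenta and the others in grey, as measured (left) and with the GC trend removed (right), with dotted lines at 2-fold. With the trend removed FTH1 (without its copies), ALAD, FBXL5, BOLA2 and SLC39A8 lie beyond the 2-fold lines.

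By likeness of the pair of fold changes, over 2 siRNAs that share a control, the protein-coding genes nearest to FTH1 among 811 of similar level were ZFP36L1, an mRNA decay factor (6868, 2162 and 2073 counts), AGRN (9011, 2463 and 3047) and SQSTM1, the autophagy receptor p62 (12586, 4217 and 5575), at distances of 0.26, 0.50 and 0.61 on the log2 scale. Those nearest to TFRC among 603 were CKAP2 (8130, 13425 and 9504 counts), MBNL1 (3665, 6307 and 3991) and ITGB1 (4261, 7435 and 5230), at 0.04, 0.09 and 0.10. Such distances also depend on how many genes have fold changes of that size, so they do not compare FTH1 with TFRC. FTH1 was taken here without its copies.

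The guide strands of the siRNAs were searched for seed matches in the principal transcripts of the 10 genes, as the reverse complement of guide bases 2 to 8. The letters for siRNA 1, TAGTGGT, were in SLC11A2 and IREB2, and in 10.7% of 19788 protein-coding genes. Those for siRNA 2, TCCTTCA, were in FTH1, TFRC, SLC11A2 and ACO1, and in 28.5% of genes. Those for the control siRNA, TGTCACG, were in ACO1 and in 6.20% of genes.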

How the data were processed

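RNA from 3 HCT116 libraries was measured. Raw counts and FPKM are the authors' deposited values, in one table with a pair of columns per library. Per the submitters' processing notes the aligner was Bowtie 0.12.2, and the builds listed are mm8 and GRCh38. The counting program and the treatment of strand and of multiply aligned reads were not stated in the labels. Coordinates in the table are GRCh38, and 97.5% of genes found in GENCODE 29 had identical ones.

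Counts were tested with edgeR 4.0.16 (R 4.3.3; glmQLFit and glmQLFTest, TMM scaling, filterByExpr at 10 counts, Benjamini-Hochberg over 17263 genes), with 1 residual degree of freedom. SEs are the log2 fold change divided by the square root of F. For each siRNA the fold change is its log2 CPM less that of the control (prior count 2). DESeq2 1.42.0 and limma 3.58.1 on log2(FPKM + 1) were alternatives. GC content comes from each gene's longest transcript in GENCODE 29, with the trend estimated by lowess (fraction 0.3). Copies of FTH1 and FTL are genes whose names start with FTH1P or FTLP, aligned locally with Biopython 1.88. Depth gave a level of 0.157 to 0.171 CPM at 3 counts. The edgeR script was tested on simulated counts. These held no GC trend and no difference between the siRNAs, so the check covers the code and not how the test behaves on these data.

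Named genes are the members, copies with at least 50 counts in a library, the 2 highest and 2 lowest genes of each list by the mean of both siRNAs, and for FTH1 and TFRC the 3 nearest genes within 2-fold of its mean CPM. Members and lists were chosen with earlier results of these data known. Aligned stretches of the ferritin genes and their copies are not reported here.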

Additional observations from a re-analysis of the deposited data

How the results depend on the processing

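The number of genes called over all genes was 10, and it was 0 with limma on FPKM, with the GC trend removed, without the low-count filter and under a minimum of 1 CPM per library, and 567 with DESeq2, which called 1 of the 10 members, FTH1 (log2 fold change -1.58, DESeq2 adjusted p = 1.71e-05). The causes were not tested. The rule of size held 1 member, 3 at 1.5-fold and 0 with the copies added to their parents. No share of all genes is given at 1.5-fold, so the 3 have no background. Those added at 1.5-fold were SLC11A2 (0.63 and 0.71) and IREB2 (0.68 and 0.68), for siRNA 1 and siRNA 2. SLC11A2 fell to 0.27 and 0.43, and IREB2 to 0.14 and 0.25, once the GC trend was removed. The total over FTH1 and its copies (-0.20) was 0.10 with limma on summed FPKM (limma adjusted p = 0.929) and ranged from -0.79 without siRNA 1 to 0.22 without siRNA 2. A sum of FPKM gives short copies more weight than a sum of counts does. FTH1P2 is 412 bases long, against the 6097 bases that FPKM implies for FTH1. The 0.10 is thus another measure and no second estimate of the total of counts. The total for FTL (-0.51) ranged from -0.64 to -0.39 with 1 siRNA left out and was -0.08 with the GC trend removed (edgeR adjusted p = 0.890). With the GC trend removed ACO1 turned to -0.013, HMOX2 to 0.009, the median of cytosolic iron-sulphur assembly to 0.17 and that of ferroptosis genes to 0.008. The median of uptake, export and reduction was 0.098 without siRNA 2 and -0.191 without siRNA 1. Of 90 alternative values of the members' fold changes 88 kept direction, though not size. NCOA4 went from 0.32 to 0.008 with the GC trend removed and FTH1 from -1.58 to -0.20 with its copies added. Many of the 90 could not change direction, so the count does not measure how well the results would repeat. Adding copies alters only FTH1 and FTL, leaving out 1 siRNA returns the value of the other, and every setting uses the same 3 libraries. An adjusted p existed for 69 of the 90 and was under 0.05 in 1, FTH1 with DESeq2. Total count scaling moved the median of all genes from 0.01 to -0.09. No paired analysis was possible because the labels give no numbers shared by the groups. With 1 control library its own deviation enters every fold change.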
